A study of Mus musculus with 6 samples.

Results

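Proteasome subunit genes were followed in the presomitic mesoderm of mouse embryos with and without Nrarp. Members were all genes with a single-gene probe whose symbol begins with Psma, Psmb, Psmc, Psmd, Psme, Psmf or Psmg and a number. This gave 37 of 13840 named genes, with 1 probe each. Of these, 35 belong to the proteasome, its activators, its inhibitor or its assembly chaperones. The other two, Psmc3ip (a meiotic recombination factor) and Psme3ip1 (a partner of an activator), match by name only. The remaining 14 genes of the subunit lists, among them Psma1, Psma2, Psmb6, Psmb9, Psmd1 and Psmd14, have no named single-gene probe here and were not analysed.

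The proteasome is the large protease that degrades proteins tagged with ubiquitin. Its 20S core is a barrel of alpha rings, which gate the entrance, and beta rings, which carry the cutting sites inside. The 19S regulatory particle sits on the barrel, recognises ubiquitin, removes it and unfolds the substrate with a ring of ATPases. In the presomitic mesoderm, the unsegmented tissue from which somites bud, short-lived repressors of the segmentation clock such as Hes7 are cleared through ubiquitin and the proteasome, as is the active Notch fragment.

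The study compared 3 one-colour arrays of littermate wild-type tissue with 3 arrays of Nrarp knockout tissue, all at embryonic day 10.5. In the knockout LacZ stands in place of the coding part of Nrarp, a feedback regulator of Notch signalling, and the embryos came from crosses of heterozygous parents. From each genotype 12 presomitic mesoderms were collected. Neither the strain nor the way tissue was shared out over arrays is given, so the arrays of a genotype may be technical repeats and a p-value covers no more than their spread. Intensities are in units of about the array median, since array medians lay between 0.981 and 0.993. The Nrarp probe averaged 398 ± 70.2 on the wild-type arrays and 26.7 ± 14.4 on the knockout arrays (SD, n = 3 each). The presomitic markers Tbx6, Dll3 and Rspo3 were above the array median on every array, as were Hes7 and Msgn1. Primitive blood genes gave signal too (Hba-x 1419 to 3737). In such bulk samples fewer cells of a type and less RNA per cell cannot be told apart.

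The replicate 1 arrays of both genotypes stood apart from the other 4. Over the 37 genes, log2 intensities correlated at 0.998 between wild-type replicate 1 and knockout replicate 1, and at 0.990 to 0.996 among the arrays of replicates 2 and 3. Across these sets the correlation was 0.848 to 0.907. These are correlations across genes on shared arrays and carry no test. Results are therefore also given with the replicate number as a block in the model. Counts and the median over the members without replicate 1 are given at the end.

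Most probes of the members were bright, and no member passed the test between genotypes. On every array 32 of the 37 probes exceeded the array's 75th percentile, and 35 exceeded its median. Of all 33012 probes 6700 and 12166 did so. The exceptions at the 75th percentile were Psmb5, the induced subunit genes Psmb8, Psmb10 and Psmb11, and the inhibitor gene Psmf1. In limma 0 of 37 members were past an adjusted p of 0.05 without the block, against 0% of all 33012 probes. With the block 0 members passed, against 0.00606% of all probes (2 probes). At an unadjusted p under 0.05 the members again counted 0 in both fits, where all probes gave 0.657% and 3.75%. The smallest unadjusted limma p was 0.402 without the block (Psmb4) and 0.0809 with it (Psmc4), and the smallest adjusted p was 1.00 and 0.999.

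Differences between genotypes were small for the group as a whole. The median log2 difference, knockout minus wild type, was -0.0018 over the 37 members and -0.0063 over all probes. Of the members 18 were positive and 19 negative (48.6% positive, against 49.1% of all probes). The lowest was -0.55 (Psmb10) and the highest 0.27 (Psmb11), both dim. No member differed by more than 2-fold, which 4.04% of all probes and 0.119% of the 6700 probes above the 75th percentile on every array did. In the blocked fit the 95% interval lay within 2-fold in either direction for 35 of 37 members, all except Psmb10 and Psmb11. It did so for 35.1% of all probes and 99.4% of the 6700 bright probes, so narrow intervals were not particular to the members. Without the block the interval was that narrow for 18 members, as the replicate 1 arrays then count as spread.

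**Figure D1:**
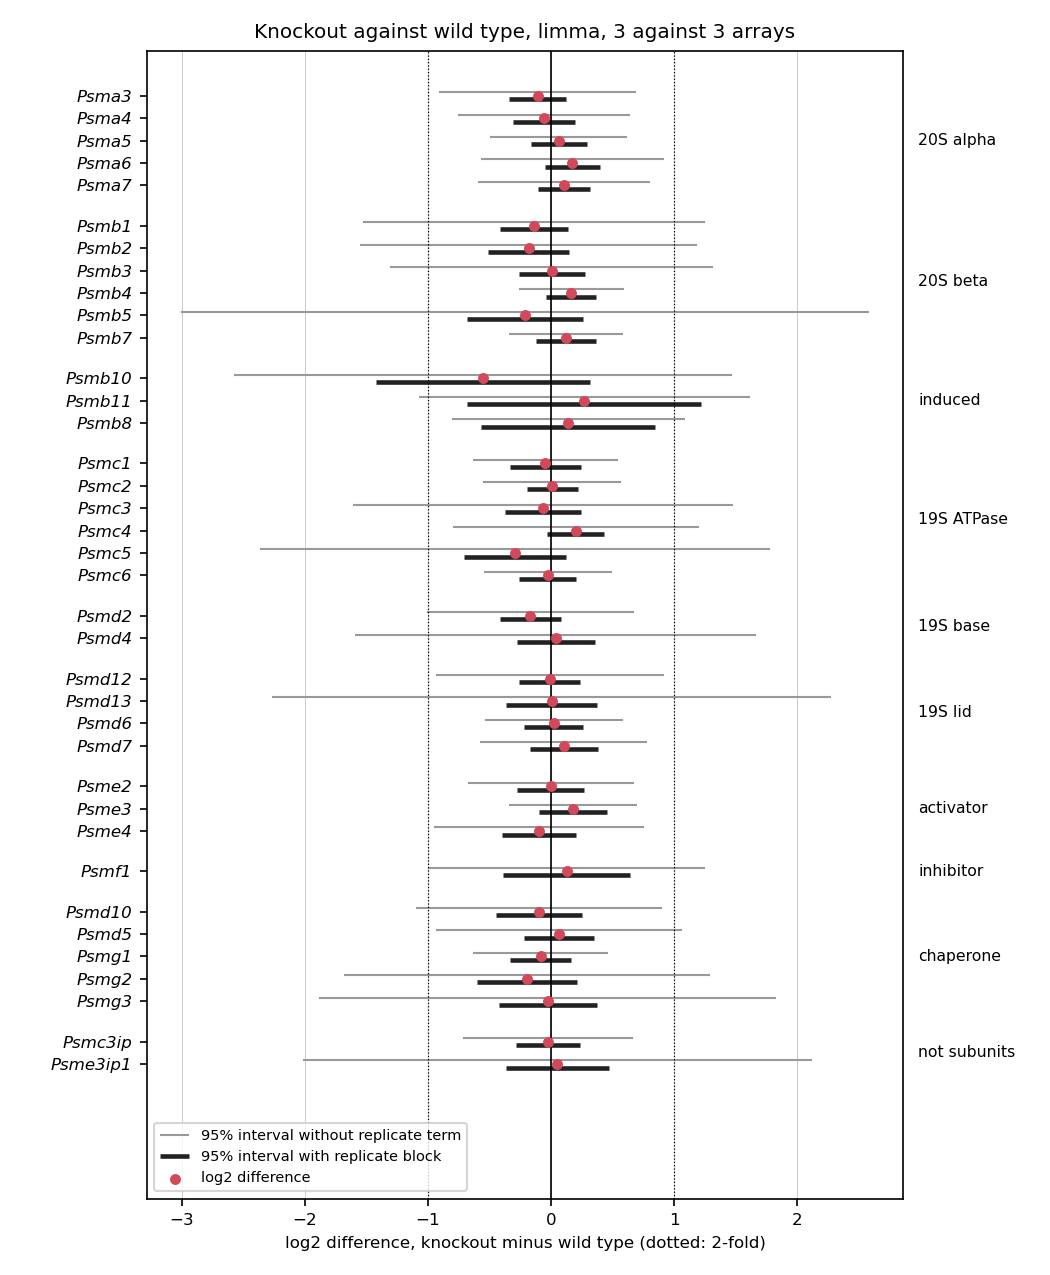
Log2 difference between knockout and wild type for the 37 genes, with 95% intervals from limma without (grey) and with (black) the replicate block, and dotted lines at 2-fold. Every point lies between -0.55 and 0.27, and the black intervals stay within the dotted lines for 35 genes.

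The alpha subunit genes gave no call between genotypes. Of 5 measured genes, 3 had positive and 2 negative differences, from -0.11 (Psma3) to 0.17 (Psma6), and 0 passed. Psma7, an outer-ring subunit, read 301, 532 and 506 on wild-type arrays 1 to 3 and 348, 536 and 542 on knockout arrays 1 to 3. Replicate 1 was the low array in each genotype and the groups overlapped. The log2 difference was 0.11 (limma SE 0.0931 with the block, unadjusted p = 0.283). Psma6 read 218, 130 and 157 on wild-type arrays and 266, 143 and 168 on knockout arrays. Here replicate 1 was the high array, the reverse of Psma7, a subunit of the same ring. Psma3, Psma4 and Psma5 ranged from 56.7 to 232 over single arrays.

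Among the constitutive beta subunit genes, Psmb4 was the only member whose groups did not overlap. Psmb4 encodes a structural, non-cutting subunit of the beta ring. It read 363, 334 and 360 on wild-type arrays and 403, 380 and 400 on knockout arrays. Every knockout array was thus above every wild-type array, by a mean log2 difference of 0.16 (limma SE 0.0901 with the block, 95% interval -0.04 to 0.37). The adjusted limma p was 1.00 without and 0.999 with the block. The exact permutation test gave p = 0.1 (two-sided), the smallest that 3 against 3 arrays allow. A count of 1 in 37 is near the background, as groups did not overlap for 3.78% of all probes (2.04% with the knockout higher). With arrays centred on their 75th percentiles Psmb4 overlapped and Psma6 was the 1 separated member, and after quantile normalization there were 0.

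The probes of the cutting subunit genes differed from each other in how they varied over the arrays. Psmb5 carries the chymotrypsin-like site, the main target of proteasome inhibitor drugs. Its probe read 50.2, 5.55 and 7.31 on wild-type arrays and 63.2, 4.32 and 4.79 on knockout arrays. Averaged over genotypes it was 10.5-fold brighter on replicate 1, while within numbers the knockout differed by 0.33, -0.36 and -0.61 on the log2 scale. The mean log2 difference was -0.21 (95% interval -0.68 to 0.26 in the blocked limma fit). Psmb7 carries the trypsin-like site. It read 288, 281 and 340 on wild-type arrays and 310, 352 and 323 on knockout arrays, with no such step at replicate 1. Its log2 difference was 0.12 (95% interval -0.12 to 0.36 in the blocked limma fit). Psmb1, Psmb2 and Psmb3, which have no cutting site of these kinds, had differences of -0.14, -0.18 and 0.01.

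Immunoproteasome genes, which cells of the immune system or cells under interferon use in place of the constitutive cutting subunits, gave weak signals. Psmb8, the counterpart of Psmb5, read 2.91, 2.01 and 1.99 on wild-type arrays and 2.54, 3.11 and 1.96 on knockout arrays. Psmb10, the counterpart of Psmb7, read 4.26, 1.05 and 1.11 against 3.76, 0.768 and 0.546. On the arrays of replicates 2 and 3 it lay near the array median or below it. Psmb11, the thymus-specific subunit, stayed below the array median on all 6 arrays, at 0.209 to 0.555. Its gene is the direct coding neighbour of Psmb5 on chromosome 14. The log2 differences were 0.14, -0.55 and 0.27, and the groups overlapped in each case. The blocked limma interval reached beyond 2-fold for Psmb10 (-1.42 to 0.31) and Psmb11 (-0.68 to 1.22).

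The ratio of each induced gene to its constitutive counterpart was compared within arrays, since a probe's brightness per molecule cancels in the contrast of genotypes. The log2 ratio of Psmb8 to Psmb5 was -2.48 ± 1.42 (SD, n = 3) for wild type against -2.13 ± 2.21 (SD, n = 3) for the knockout, a difference of 0.35 (exact permutation p = 0.7). The log2 ratio of Psmb10 to Psmb7 was -7.46 ± 1.20 (SD, n = 3) and -8.14 ± 1.55 (SD, n = 3), a difference of -0.67 (exact permutation p = 0.5). Neither difference exceeded the SD over the arrays of a genotype, which takes in the step at replicate 1. The log2 ratio of Psmb10 to Psmb7 was -6.08, -8.06 and -8.25 on wild-type arrays 1 to 3. On knockout arrays 1 to 3 it was -6.37, -8.84 and -9.21, lower within each number, and the Psmb10 probe was dim. The ratio of Psmb8 to Psmb5 was lower in the knockout within replicate 1 and higher within replicates 2 and 3. The exact test took no account of the numbers. Psmb8 and Psmb10 were the only counterparts measured, 2 in all. With 3 against 3 arrays the exact test cannot give a p below 0.1, so it could not have passed 0.05. Genes of antigen presentation that respond to interferon also gave 0 of 8 past the threshold, with 1 positive and 7 negative values around a median of -0.10. Among them B2m differed by -0.09 and Irf1, a dim interferon-induced factor, by -0.75. Of 5 measured leukocyte markers 2 were above the array median on every array (Cd52 and Lyz2), and the sum of the 5 was 11.4 to 15.0 in wild type and 10.5 to 13.1 in the knockout. Of the 5 differences between genotypes 3 were positive and 2 negative. Lyz2 was lower on every knockout array (log2 difference -0.58, adjusted p = 1.00 in limma), as were 575 of all 33012 probes. The part of such cells in the values of the induced genes was not tested.

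In the 19S particle no gene had separated groups. Of 12 measured members, 6 differences were positive and 6 negative, their median being -0.0035, and 0 passed. Within the ATPase ring, Psmc4 had the smallest blocked p of all members. It read 169, 81.7 and 80.7 on wild-type arrays and 201, 88.6 and 94.95 on knockout arrays, higher within each number by 0.25, 0.12 and 0.23. Replicate 1 was 2.14-fold brighter than the other arrays and the groups overlapped. The log2 difference was 0.20 (95% interval -0.03 to 0.43, limma adjusted p = 0.999 with the block). Psmc5 read 183, 41.5 and 42.2 against 203, 22.6 and 37.8. Its mean difference was -0.29, and the difference within replicate 2 was -0.87. Psmc2 read 298, 409 and 434 against 310, 399 and 435, a difference of 0.01. Psmc1, Psmc3 and Psmc6 differed by -0.05, -0.07 and -0.03.

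The non-ATPase subunits of the particle gave no call. Psmd2, a scaffold of the base that binds ubiquitin-like domains, read 126, 64.2 and 75.01 on wild-type arrays and 109, 63.1 and 62.5 on knockout arrays, a log2 difference of -0.17. Psmd4, the ubiquitin receptor also known as Rpn10, read 66.4, 19.5 and 20.8 against 80.2, 16.9 and 21.5, a difference of 0.04. In the lid, which holds the deubiquitinating subunit, Psmd7 read 166, 129 and 122 against 204, 112 and 142, a difference of 0.10. Psmd6 read 77.9, 91.1 and 100.02 against 82.3, 87.7 and 102, a difference of 0.02. Psmd12 and Psmd13 differed by -0.01 and 0.00. In each of these genes the groups overlapped.

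Many of the 19S genes carry the ETS motif CCGGAAG in the promoter. RefSeq promoter windows of build GRCm38.p6 (250 bases before to 50 after each start, 1 or more windows per gene) were found for 31 of the 37 members. Psmb1, Psmb2, Psmb7, Psmc3, Psmd7 and Psmg2 had none and were not searched. The motif, searched on both strands, occurred for 8 of 10 genes of the 19S particle (80%) and 1 of 8 genes of the constitutive core (12.5%). It occurred for 6 of the 13 other members (46.2%). Over all 27025 genes with a window the share was 9.93%, and over the 3333 genes with a probe above the 75th percentile on every array it was 23.6%. These shares are descriptions with no test, and a match is not a bound site.

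The windows below show those sites that lie wholly upstream of the start in the 19S genes and in Psma6. Among the core genes with a window, Psma6 was the only holder of the motif. Each sequence is written 5′ to 3′ along the gene, with the motif or its reverse complement in capitals. A second window of Psmc2 is left out, as is Psmd13, whose site overlaps the start.

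Psmc1 (chr12:100110149-100110201, + strand): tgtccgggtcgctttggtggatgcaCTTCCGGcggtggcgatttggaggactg
Psmc2 (chr5:21785166-21785222, + strand): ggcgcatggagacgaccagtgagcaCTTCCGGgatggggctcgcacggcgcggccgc
Psmc6 (chr14:45329699-45329755, + strand): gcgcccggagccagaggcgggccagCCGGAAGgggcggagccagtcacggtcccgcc
Psmd2 (chr16:20651601-20651651, + strand): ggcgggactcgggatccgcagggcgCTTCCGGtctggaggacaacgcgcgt
Psmd4 (chr3:95042708-95042764, - strand): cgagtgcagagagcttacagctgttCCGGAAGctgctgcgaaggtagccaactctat
Psmd6 (chr14:14120959-14121015, - strand): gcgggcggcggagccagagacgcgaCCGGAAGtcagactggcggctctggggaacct
Psmd12 (chr11:107479486-107479527, + strand): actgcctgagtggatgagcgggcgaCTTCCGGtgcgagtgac
Psma6 (chr12:55398668-55398724, + strand): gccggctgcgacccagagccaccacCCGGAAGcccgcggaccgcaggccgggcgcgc

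**Figure D2:**
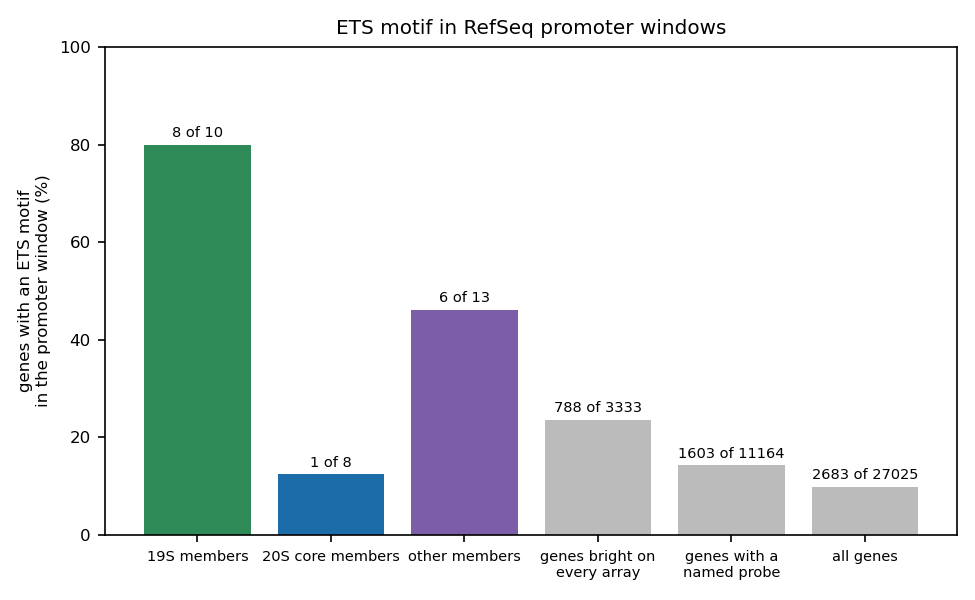
Share of genes with the ETS motif in a RefSeq promoter window, for members of the 19S particle, the constitutive 20S core and the rest, beside genes bright on every array, genes with a named probe and all genes. The 19S bar stands at 80% and the core bar at 12.5%, where all genes give 9.93%.

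Pooled over the 31 members with a window, the ETS motif was in 15 (48.4%), against 9.93% of all genes. Other promoter motifs, pooled in the same way, were found at shares closer to those of all genes with a window. The antioxidant response core TGACNNNGC, bound by Nfe2l1 and Nfe2l2, which drive proteasome genes when the protease is inhibited, was in 4 of 31 members (12.9%) and in 14.0% of all genes. The members were Psmb5, Psmc6, Psmd12 and Psme4. Its stricter form TGACTCAGC, of the same length and a case of that core, was in 0 of 31 members and 0.503% of all genes. The NF-Y box CCAAT was in 12 members (38.7%, against 41.1%), and the SP1 box GGGCGG in 13 (41.9%, against 38.2%). Over the 3333 genes with a probe above the 75th percentile on every array the SP1 share was 71.8%, well above that of the members. The NF-Y share over those genes was 44.7%. Split by class as for ETS, the SP1 box was in 60% of the 19S genes, 25% of the core genes and 38.5% of the other members. The interferon element GAAANNGAA was in 4 (12.9%, against 9.76%) and the NRF1 motif CGCATGCGC in 1 (Psmg1, 3.23%, against 1.95%). By class the interferon element was in 2 of 10 19S genes, 2 of 8 core genes and 0 of 13 other members. Between genotypes the 15 members with the ETS motif differed by -0.17 to 0.18 and the 16 with a window and no such motif by -0.55 to 0.27.

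Activators, the inhibitor and assembly factors gave 0 calls among 9 measured genes. Psme3 encodes the nuclear activator that opens the core without ubiquitin. It read 118, 104 and 99.8 on wild-type arrays and 109, 128 and 128 on knockout arrays, with a log2 difference of 0.18 (95% interval -0.10 to 0.46 in the blocked limma fit). Psme4, the activator also called PA200, read 46.2, 29.4 and 28.5 against 46.8, 23.6 and 28.5, a difference of -0.10. Psme2, an interferon-inducible activator subunit, read 36.2 to 55.6 over the 6 arrays and differed by less than 0.01. The inhibitor gene Psmf1 read 2.57, 4.70 and 5.33 against 2.64, 5.78 and 5.47, a difference of 0.12.

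The chaperones that build the core and the base gave 1 positive and 4 negative differences. Psmg1, which helps assemble the alpha ring, read 63.7, 69.5 and 72.1 on wild-type arrays and 59.3, 67.0 and 67.2 on knockout arrays. The knockout was lower within each number by 0.10, 0.05 and 0.10 on the log2 scale, but the groups overlapped, and the difference of -0.09 did not pass. Psmg2, its partner, read 43.8, 16.5 and 19.4 against 52.7, 11.1 and 16.0, a difference of -0.20. Psmg3, Psmd5 and Psmd10 differed by -0.03, 0.06 and -0.10. Differences of 1 sign within all 3 numbers were found for 6 members with the knockout higher and 3 with it lower, against 13.2% and 10.5% of all probes.

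**Figure D3:**
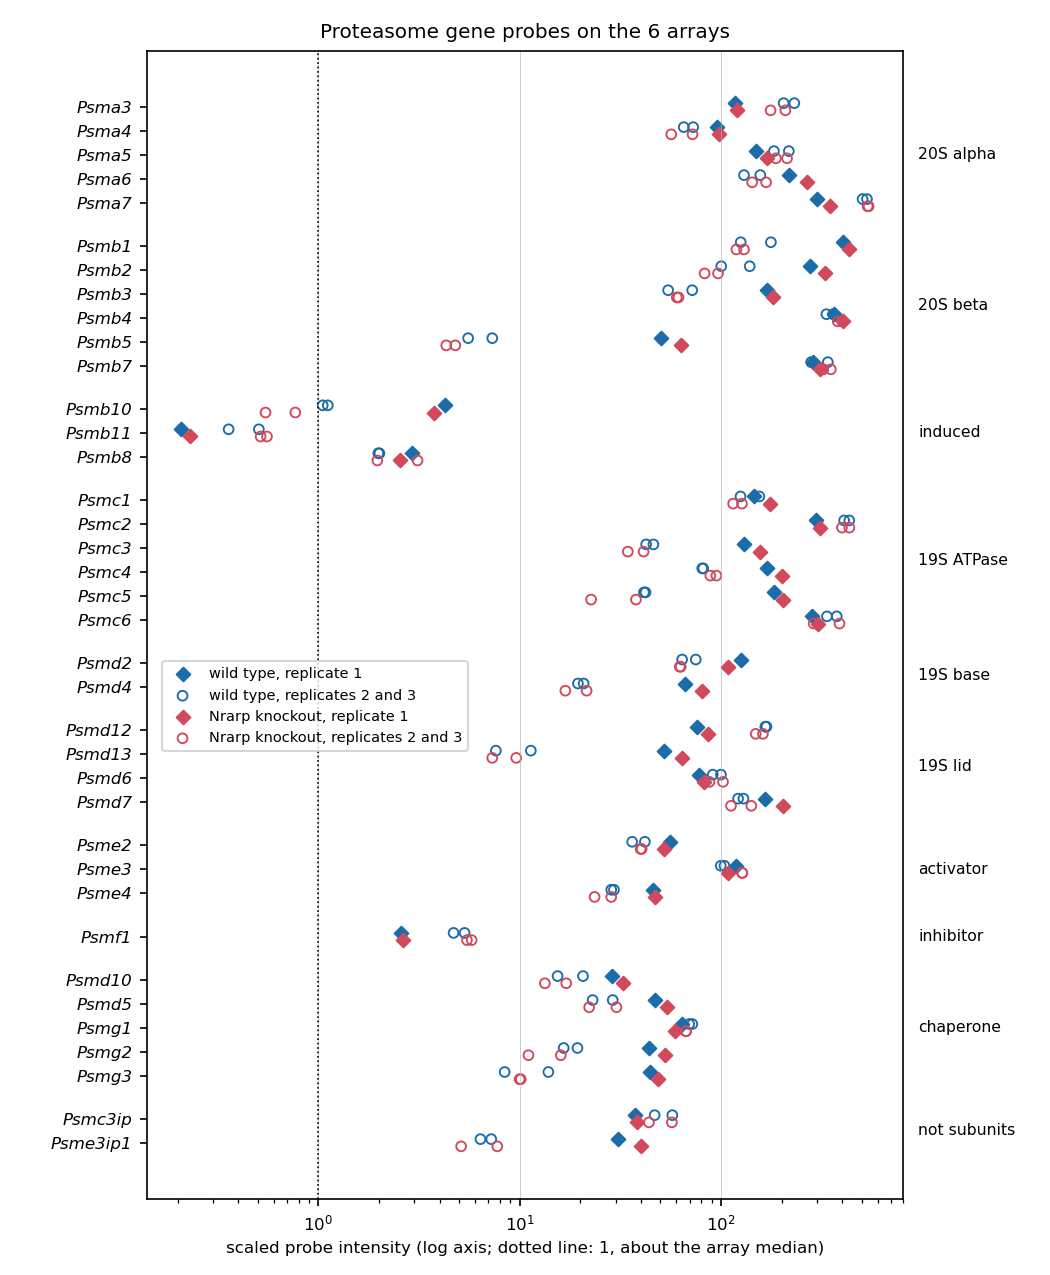
Scaled intensity of the 37 genes on each array (log axis), with filled diamonds for replicate 1 and open circles for replicates 2 and 3, blue for wild type and red for knockout. Red and blue diamonds lie side by side, while diamonds and circles are far apart for genes such as Psmb5, Psmd13 and Psmc5.

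The spread between replicate numbers was larger than that between genotypes and differed from gene to gene. The offset of replicate 1 from the mean of replicates 2 and 3 ranged over the members from -1.12 (Psmb11) to 3.39 (Psmb5) on the log2 scale, with an SD over the 37 genes of 1.17. The difference between genotypes had an SD over the same genes of 0.157. As deposited, 13 members were over 2-fold higher on replicate 1 and 2 over 2-fold lower, against 17.8% and 24.6% of all probes. Among the 6700 probes above the 75th percentile on every array the shares were 25.9% and 5.79%, so the members' counts are closer to those of other bright probes than to all probes. Replicate 1 was above both other arrays in each genotype for 22 members (59.5%, against 27.1% of all probes and 51.4% of those bright probes) and below both for 10 (27.0%, against 39.1% and 30.7%). The 2-fold counts depend on the scaling, being 8 and 10 with arrays centred on their 75th percentiles. Differences of offset between 2 genes do not depend on such centring.

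The probes for subunits of 1 ring did not share 1 offset. As each gene has 1 probe, differences between genes and between probes cannot be told apart. In the beta ring Psmb1, Psmb2, Psmb3 and Psmb5 had offsets of 1.62, 1.56, 1.51 and 3.39, while Psmb4 and Psmb7 had 0.06 and -0.11. The offset of Psmb5 exceeded that of Psmb7 by 3.50, a ratio of 11.3. In the alpha ring the offsets ran from -0.79 (Psma3) to 0.70 (Psma6). In the lid Psmd13 had 2.71 and Psmd12 -0.99. The median offset was 0.30 over the 15 members with the ETS motif, which include both. It was 0.49 over the 16 with a window and no such motif, and a link was not tested. In the ATPase ring Psmc5 had 2.46 and Psmc2 -0.46. The offsets were alike in the genotypes, for example 2.98 in wild type and 3.80 in the knockout for Psmb5, and 2.13 and 2.79 for Psmc5. Across the 37 genes the wild-type and knockout offsets, which share no array, correlated with r = 0.982 (rho = 0.984), against r = 0.757 over all probes. Of the 33012 probes 6700 were above the 75th percentile on every array, against 32 of the 37 members. The correlation was not taken over those bright probes alone. These correlations are descriptions across genes, which are not independent replicates.

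**Figure D4:**
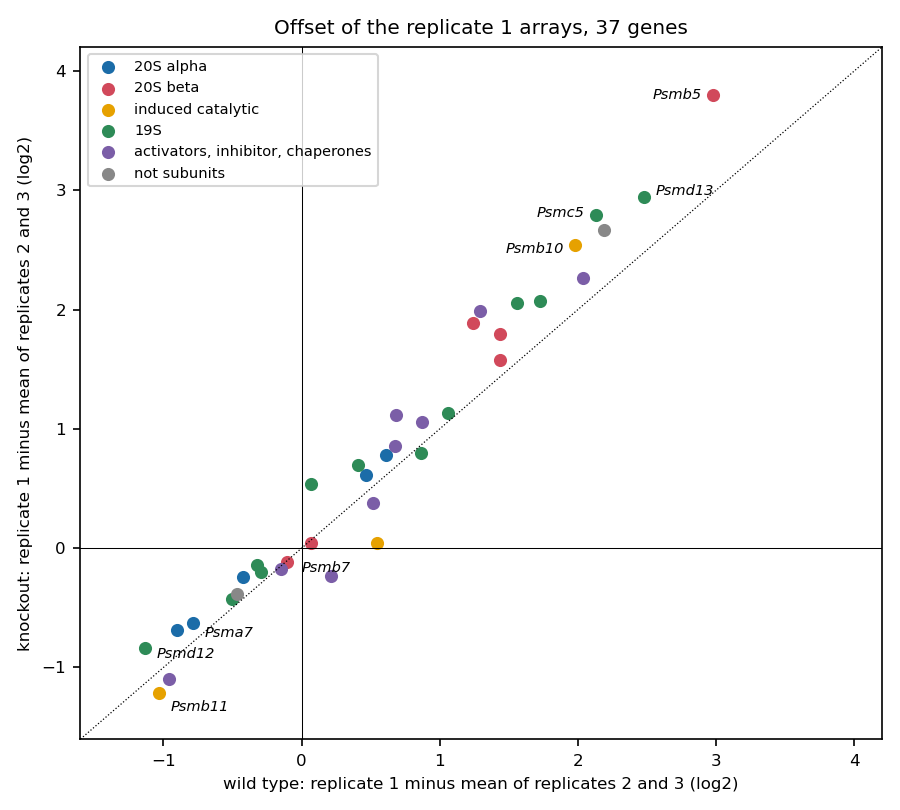
Offset of replicate 1 from the mean of replicates 2 and 3 (log2) in wild type (x axis) and knockout (y axis) for the 37 genes, coloured by subcomplex, with a dotted line of equality. Genes lie along the line from Psmb11 at -1.12 to Psmb5 at 3.39 (mean of both genotypes), and members of 1 subcomplex are scattered along it.

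Array range differed on the replicate 1 arrays, and markers of cell types went in both directions there. Dividing an array's 75th percentile by its 10th gave 42.7 and 56.9 for replicate 1, and between 12.4 and 16.0 elsewhere. Of 7 presomitic markers 3 were over 2-fold higher on replicate 1 (Hes7 by 5.27, Msgn1 by 3.87 and Dll1 by 2.00 on the log2 scale). The others had offsets of -0.76 (Tbx6), -0.23 (Dll3), -0.06 (Mesp2) and -0.07 (Rspo3). The summed level of the 7 was 1329 to 1417 on replicate 1 and 1452 to 1670 on the other arrays. Over 2-fold higher were 17.8% of all probes and 25.9% of those above the 75th percentile on every array. Of 6 primitive blood markers 1 was higher and 1 lower (Hba-x, -1.26), with sums of 4897 to 5770 and 6674 to 7738. Of 4 endothelial markers 2 were higher, with sums of 66.9 to 67.0 and 67.6 to 99.4. Of 5 leukocyte markers 0 were higher and 1 lower, with sums of 13.1 to 15.0 and 10.5 to 14.5. No marker was listed at 0. The part of array range or tissue makeup in the offsets was not tested.

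Signs within numbers differed between replicate 1 and the others. In the pair of replicate 1 arrays 31 of 37 members were higher in the knockout (83.8%), against 56.9% of all probes and 78.2% of those above the 75th percentile on every array. In the pairs of replicates 2 and 3 the counts were 13 (35.1%) and 14 (37.8%), against 50.2% and 48.0% of all probes and 41.7% and 47.4% of those above the 75th percentile on every array. The members' median was 0.15 in the first pair and -0.06 and -0.03 in the others. A direction common to the group was therefore not held across the numbers.

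Genes that work with the proteasome also gave no call between genotypes. Of 16 measured ubiquitin and proteasome partners outside the name rule, 11 differences were positive and 5 negative, their median being 0.03, with 0 past the threshold. Pomp, the chaperone that matures the core, read 193, 118 and 143 on wild-type arrays and 220, 112 and 145 on knockout arrays. The proteasome-bound deubiquitinases Usp14 and Uchl5 each differed by -0.03, and the small 19S subunit gene Sem1 by 0.03. Nfe2l1, the transcription factor for proteasome genes, read 14.3, 2.34 and 1.20 against 21.1, 1.69 and 0.633. It was bright on replicate 1 only, with an offset of 3.72, and differed between genotypes by -0.28. The largest difference of this list was that of the dim gene Ecpas (-1.45, adjusted p = 0.999 in limma with the block).

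Ubiquitin ligase genes known for the turnover of Notch, Wnt and Hes proteins gave 0 calls among 10 measured genes, with 5 positive and 5 negative values around a median of 0.03. Fbxw7, Cul1, Btrc, Itch, Numb, Huwe1 and Siah1b of the same list had no named single-gene probe and were not analysed. In 2 of the measured genes, Fbxw11 and Dtx1, the groups did not overlap and the knockout was higher, as for 2.04% of all probes. No test compared the list with other genes. Fbxw11, a substrate receptor of the ligase that degrades beta-catenin, read 61.8, 71.2 and 67.0 on wild-type arrays and 71.3, 76.9 and 75.9 on knockout arrays, a difference of 0.17. Dtx1, a Notch-induced ligase gene, was dim, at 1.14, 0.339 and 0.508 against 1.75, 1.53 and 1.17. Its difference of 1.33 had an unadjusted limma p of 0.0471 and an adjusted p of 1.00. The core ligase genes Rbx1 and Skp1 differed by 0.08 and -0.15.

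The COP9 signalosome, a complex built like the proteasome lid that regulates cullin ligases, also had offsets at replicate 1. Of its 8 measured genes, 2 were positive and 6 negative between genotypes, with a median of -0.06 and 0 past the threshold. On replicate 1, 4 of the 8 were over 2-fold higher, among them Cops8 (2.51) and Cops5, its catalytic subunit (1.38), and 0 were lower. Over all probes these shares were 17.8% and 24.6%, and over the probes above the 75th percentile on every array 25.9% and 5.79%, and no test compared the list with them.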

How the data were processed

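Total RNA had been labelled with digoxigenin and hybridised to 1-colour Applied Biosystems arrays, per the labels' protocols. The authors deposited linear intensities, 1 per probe and array, whose array medians lie just under 1. How they scaled, corrected or filtered them is stated in no source used here, and the array descriptions name a human product although the organism and probe annotation are mouse. Dim probes are most open to such handling.

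The intensities of all 33012 probes on all 6 arrays (3 a genotype) were converted to log2 with no offset or filter. Genotypes were compared with limma 3.58.1 in R 4.3.3 (lmFit, eBayes with an intensity trend, Benjamini-Hochberg over all probes, threshold 0.05, two-sided), without and with the replicate number as a block. Exact permutation tests used the 6 arrays. Per gene the probe with the highest mean log2 was to be used, and each member has 1.

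The replicate numbers occur in both genotypes. Same-numbered arrays deviated together from their genotype means (r = 0.757, 0.442 and 0.374 over 33012 probes), and every value being over 0.1 the number was taken as a pairing. Across replicates 2 and 3 the values were 0.397 and 0.419, so the pairing rests on the separation of replicate 1. The labels tie no number to a litter or day.

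Genes were named by GEO's platform annotation, and all 37 Entrez identifiers occur in the RefSeq gene table (GRCm38.p6). Promoter windows were searched for 7 motifs. Values on every array are given for the cutting subunits, their induced counterparts, in each subcomplex the 2 members with the smallest p and the brightest, and members with separated groups, 20 genes in all. Other genes of the text illustrate their lists and were chosen after their values were seen. The members and lists were chosen with earlier results of these data known. Tables came from scripts in Python 3.11.15 with pandas 2.3.3 and scipy 1.17.1, and plots from matplotlib 3.10.9.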

Additional observations from a re-analysis of the deposited data

How the results depend on the processing

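The count of 0 members past the threshold held under every alternative run. These were the replicate block, centring on 75th percentiles, quantile normalization, an offset of 1, and a filter to probes with a mean log2 above 0 (36 members). They also took in a variance prior without a trend, array weights, single arrays left out, and replicates 2 and 3 alone. A run without the 2 genes that are no proteasome genes was added after the data were seen. Among the 20 named members the smallest adjusted p under any alternative was 0.560. The replicate block, as a fit with number as pairing, cannot move the mean differences, as each number has 1 array a genotype. The median log2 difference of -0.0018 was thus fixed under it. The block changed no call among the members. In replicates 2 and 3 alone the median was -0.079, with 13 of 37 members positive. With arrays centred on their 75th percentiles it was 0.051 (all probes 0.046), with 24 positive. With single arrays left out, which unbalances the numbers, the median ran from -0.18 (without knockout replicate 1) to 0.17 (without wild-type replicate 1). The count of positive members then ran from 14 to 29. Leaving out single arrays turned the sign of 16 of the 20 named differences. Their lowest and highest values were -0.16 and 0.15 for Psmc2, -0.18 and 0.55 for Psmc4, -1.23 and 0.42 for Psmc5, -0.43 and 0.12 for Psmd2, -0.65 and 0.61 for Psmd4, -0.078 and 0.10 for Psmd6, and -0.13 and 0.30 for Psmd7. They were -0.088 and 0.38 for Psma6, -0.15 and 0.32 for Psma7, -1.48 and 0.78 for Psmb5, -0.38 and 0.12 for Psme4, -0.86 and 0.27 for Psmg2, -1.40 and 0.11 for Psmb10, -0.074 and 0.67 for Psmb11, -0.022 and 0.32 for Psmb8, and -0.20 and 0.49 for Psmf1. The ratio of Psmb8 to Psmb5 ran from -0.48 to 1.60 and that of Psmb10 to Psmb7 from -1.56 to 0.020. Psmb4, Psmb7 and Psme3 stayed positive and Psmg1 negative. Sign changes under other alternatives were confined to Psmc2 (-0.0078 after quantile normalization, -0.017 in replicates 2 and 3), Psmd6 (-0.0040 and -0.010) and Psmd4 (-0.033 with array weights, -0.079 in replicates 2 and 3), and the cause was not tested. The count of separated members was 0 after quantile normalization. Alternatives for the replicate 1 offset were chosen after seeing the data. Centring on 75th percentiles gave 8 members over 2-fold higher, 10 lower and a median of -0.23 (all probes -1.11), against 0.55 (all probes -0.33) as deposited. The median was 0.31 after quantile normalization and 0.70 in the knockout alone, and an offset of 1 left 0 members over 2-fold lower. Averaging all probes of a gene changes nothing, as each member has 1. Precision was limited with 3 arrays a genotype, and the median SE over the members was 0.399 without the block and 0.123 with it.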
